A study of Homo sapiens with 6 samples.

Results

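The 44 genes described here encode the enzymes of cholesterol and fatty acid synthesis together with the proteins that control their transcription. They were selected by gene symbol from the 58735 genes of the deposited expression table and fall into 8 genes of SREBP control, 20 enzymes of sterol synthesis and 16 genes of fatty acid synthesis, desaturation, elongation and activation. RNA was sequenced from HCT116SCs, the CD44+ CD326+ stem cell fraction that was sorted with magnetic beads from the human colorectal cancer line HCT116 and grown as spheres in serum-free DMEM/F12 with EGF, bFGF and B27. The cells received either a negative control siRNA (NC, genotype labelled WT, n = 3 libraries) or siRNA against PSCA (siPSCA, genotype labelled PSCA knockdown, n = 3 libraries). All libraries share the lipid transfection reagent and the harvest at 48 h. Which of the PSCA siRNAs was used is not stated, everything derives from 1 cell line, and nothing in the labels says whether the libraries of a group come from separate cultures, so the p-values measure the spread between libraries, which may be technical.

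Cells make cholesterol from acetyl-CoA through mevalonate, farnesyl diphosphate, squalene and lanosterol, and they make fatty acids from the same acetyl-CoA through malonyl-CoA. Both pathways are switched on by the SREBP transcription factors, which lie in the membrane of the endoplasmic reticulum bound to SCAP. When sterols are scarce SCAP escorts them to the Golgi for cleavage, and when sterols are plentiful the INSIG proteins hold the complex back. SREBP-2 acts mainly on sterol genes and SREBP-1c on fatty acid genes, usually beside NF-Y and SP1 on the promoter, whereas the LXR receptors raise SREBF1 when oxysterols accumulate.

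PSCA itself did not tell the libraries apart. It had 4, 12 and 15 reads in NC 1 to NC 3 and 9, 9 and 7 reads in siPSCA 1 to siPSCA 3, or an FPKM (fragments per kilobase of gene, scaled to the library total) of 0.135, 0.391 and 0.494 against 0.302, 0.287 and 0.218. The adjusted p from limma was 0.728 for a log2 fold change of -0.07 with a standard error of 0.12, so the groups follow the labels. With so few reads these RNA values cannot show whether PSCA fell. On protein blots of HCT116SCs the paper reports less PSCA after each PSCA siRNA it tried. Between 16099716 and 17302219 reads per library lay on genes. NC 3 stood apart from NC 1 and NC 2, and its distance from them depended on base composition: over 13792 genes it had a Spearman correlation of -0.561 with GC content, a description since genes are no replicates. Of the epithelial and sorting markers, EPCAM, which encodes CD326, had an FPKM of 93.3 to 122.9 in the 6 libraries and was not called, whereas CDX1 was listed at 0 in all of them and VIL1 and LGR5 lay under 0.1. CD44, the other sorting marker, lay at 79.2 to 87.5 FPKM in NC and at 59.6 to 62.4 in siPSCA and fell by 0.44 on the log2 scale (limma adjusted p = 0.00193), or by 0.29 once a trend on GC content and gene length had been removed. KRT8, KRT18 and KRT19 lay between 114.4 and 377.9 FPKM. Of the 8 tested markers of this list 3 rose and 2 fell (62.5% called, all tested genes 50.7%), with CDH1 at -0.60 and CDX2 at 0.70. After removal of this trend 1 rose and 3 fell (all tested genes 21.2% higher and 18.4% lower), with CDH1 at -0.60 and CDX2 at 0.39. KRT8 then went from 0.22 to -0.02 and KRT19 from 0.25 to -0.27, neither still called. The 6 leukocyte, 4 endothelial and 6 hepatocyte and adipocyte markers summed to 0.106 to 0.567 FPKM per list and library. Of the 6 fibroblast markers 1, COL1A1, exceeded an FPKM of 1 on average. The summed FPKM of the 6 lay between 3.49 and 5.74 in the NC libraries, below the 6.17 to 6.74 of siPSCA. Most of this sum was COL1A1, at 5.62, 5.16 and 3.35 FPKM in NC and 6.03, 6.51 and 5.95 in siPSCA. COL1A1 was not called (log2 fold change 0.35, limma adjusted p = 0.111). After removal of the trend it was at -0.06 (adjusted p = 0.523). The part of the epithelial, sorting and fibroblast markers in the results was not tested.

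Promoter sequences are shown first because these genes share their regulators. RefSeq promoter windows on GRCh38.p14, from 250 bases before to 50 bases after a start site, were at hand for 40 of the 44 genes (63 windows), and the missing entries are ACAT2, FDFT1, SQLE and FASN. Printed here, 5′ to 3′ on the strand of the gene, are the 250 bases before the start of both genes that held the letters of a sterol response element (TCACNCCAC), of the sterol enzymes with the largest rise (TM7SF2) and fall (IDI1) on the log2(FPKM + 1) scale before any trend was removed, of the fatty acid gene with the largest fall (ACSS2), and of INSIG1, which was added after its values had been seen. Capitals mark sterol response element letters and NF-Y boxes (CCAAT, or ATTGG on the opposite strand).
SREBF2 (chr22:41832855-41833104, plus strand): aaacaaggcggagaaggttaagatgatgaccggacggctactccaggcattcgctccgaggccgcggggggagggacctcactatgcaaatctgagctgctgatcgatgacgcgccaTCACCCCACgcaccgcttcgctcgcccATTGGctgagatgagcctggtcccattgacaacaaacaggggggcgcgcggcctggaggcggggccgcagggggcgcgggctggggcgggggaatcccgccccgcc
ACSL1 (chr4:184805554-184805803, minus strand): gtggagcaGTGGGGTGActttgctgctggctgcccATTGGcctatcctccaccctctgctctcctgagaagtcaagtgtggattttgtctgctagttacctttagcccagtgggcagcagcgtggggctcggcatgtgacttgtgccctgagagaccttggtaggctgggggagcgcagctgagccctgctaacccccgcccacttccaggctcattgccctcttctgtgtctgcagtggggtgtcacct
TM7SF2 (chr11:65111622-65111871, plus strand): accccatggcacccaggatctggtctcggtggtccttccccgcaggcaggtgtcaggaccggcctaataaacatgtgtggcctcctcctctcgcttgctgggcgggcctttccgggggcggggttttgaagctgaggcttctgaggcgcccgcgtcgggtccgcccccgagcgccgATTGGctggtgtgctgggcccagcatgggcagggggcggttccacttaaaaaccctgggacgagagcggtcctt
IDI1 (chr10:1049120-1049369, minus strand): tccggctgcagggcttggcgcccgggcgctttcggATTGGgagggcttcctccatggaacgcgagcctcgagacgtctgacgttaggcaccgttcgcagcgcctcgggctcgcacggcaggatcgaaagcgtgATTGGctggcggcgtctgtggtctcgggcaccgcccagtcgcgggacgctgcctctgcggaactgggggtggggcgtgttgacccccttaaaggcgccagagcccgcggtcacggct
ACSS2 (chr20:34874739-34874988, plus strand): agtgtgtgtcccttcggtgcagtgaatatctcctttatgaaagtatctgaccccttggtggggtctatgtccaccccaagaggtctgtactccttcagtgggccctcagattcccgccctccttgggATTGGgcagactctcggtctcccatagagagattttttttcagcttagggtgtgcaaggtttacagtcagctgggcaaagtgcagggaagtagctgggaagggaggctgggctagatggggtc
INSIG1 (chr7:155297628-155297877, plus strand): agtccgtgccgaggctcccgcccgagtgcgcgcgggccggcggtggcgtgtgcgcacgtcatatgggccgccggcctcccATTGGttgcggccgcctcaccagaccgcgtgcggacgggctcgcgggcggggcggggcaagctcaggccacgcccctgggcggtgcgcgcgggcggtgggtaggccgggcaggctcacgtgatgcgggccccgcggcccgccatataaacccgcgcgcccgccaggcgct

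In the SREBF2 window the sterol response element letters lie 133 to 125 bases before the start and an NF-Y box follows 106 to 102 bases before it. The ACSL1 match lies 242 to 234 bases before a start that is 21265 bases from the 5′ end of the deposited gene, and the ACSS2 start is 2843 bases inside its gene. INSIG1 held an NF-Y box at 170 to 166 bases and an E-box (CACGTG) at 55 to 50 bases before the start, TM7SF2 an NF-Y box at 74 to 70 bases and IDI1 NF-Y boxes at 215 to 211 and 117 to 113 bases. Counted over all windows of a gene and both strands, with each motif searched separately, TCACNCCAC was found in 2 of the 40 genes (5.0%), compared with 1.39% of all 27305 genes with a window. These were 0 of 17 sterol enzymes, 1 of 15 fatty acid genes (ACSL1) and 1 of 8 control genes (SREBF2). No other spelling of the element was searched, so these counts do not tell which promoters lack a sterol response element. CCAAT was found in 29 (72.5%, all genes 39.7%), in 14 of 17 sterol enzymes (82.4%), 10 of 15 fatty acid genes (66.7%) and 5 of 8 control genes (62.5%). GGGCGG, the GC box to which SP1 binds, was found in 36 (90.0%, all genes 48.3%) and CACGTG in 5 (12.5%, all genes 8.77%), namely INSIG1, SCAP, LSS, SC5D and ELOVL5. Members that rose and members that fell both held NF-Y boxes, as the windows of TM7SF2 and IDI1 show. The 27305 genes had 35116 windows and were not limited to tested genes, whereas the 40 members had 63 windows and were all tested. The shares are therefore not matched for expression or for windows per gene. These are matches of letters in short windows, with no measurement of binding.

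**Figure D1:**
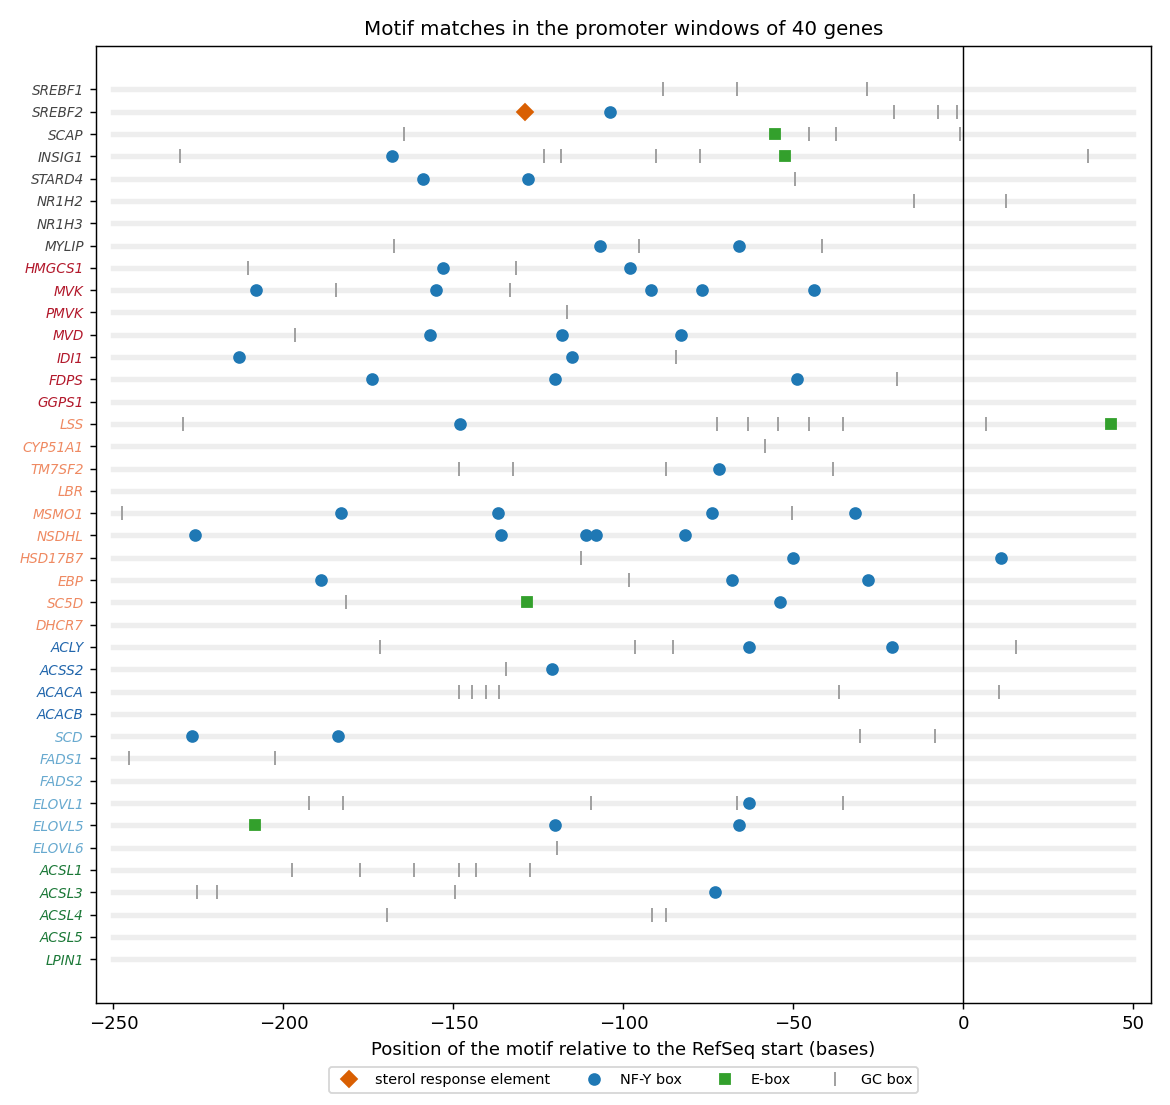
Position of each motif match (bases from the RefSeq start, which is the vertical line) in the window nearest to the 5′ end of the deposited gene, for 40 genes ordered and coloured by role. In these windows NF-Y boxes (circles) were found in 22 genes, GC boxes (ticks) in 30, E-boxes (squares) in 5 and the sterol response element letters (diamond) in 1, SREBF2.

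To find out how the pathway as a whole differed, log2(FPKM + 1) was compared between siPSCA and NC with limma. The fit took in 13796 genes whose FPKM averaged 1 or more, a minimum that all 44 members passed. Differences were called at an adjusted p under 0.05, with adjustment over all tested genes. Of the 44 genes 28 (63.6%) were called, 16 higher (36.4%) and 12 lower (27.3%) in siPSCA. Among all tested genes 50.7% were called, 26.6% higher and 24.2% lower, so a call alone says little in these libraries. The groups of libraries did not overlap for 36 of the 44 genes, against 64.5% of all tested genes. The median log2 fold change of the 44 genes was 0.06 (range -1.23 to 1.14) beside 0.01 for all tested genes, and their median absolute change was 0.32 beside 0.30. Changes larger than 1 on the log2 scale were found in 4 members (9.09%, all tested genes 4.42%): INSIG1 and STARD4 fell, and SREBF1 and TM7SF2 rose. Once the dependence on base composition and length described next had been taken out, 3 members exceeded this size (all tested genes 1.94%), namely INSIG1 (-1.22), CYP51A1 (1.10) and ACSS2 (-1.01), whereas STARD4 was at -0.90, SREBF1 at 0.63 and TM7SF2 at 0.36. Thus the members did not move as a block, and the larger changes lay in single genes on both sides of zero.

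Fold changes rose with GC content. With the GC content of the longest transcript, the log2 values of siPSCA against NC had a Spearman correlation of 0.664 over all tested genes and of 0.731 over the 44 members (Pearson 0.695, n = 44 genes that share the same libraries). Median GC content was 58.3% (41.5% to 65.3%) in the 16 members that rose, 41.2% (34.2% to 54.6%) in the 12 that fell and 48.1% in all tested genes. NC 3 had the lowest FPKM of the 6 libraries in 14 of the 16 risers and the highest in 8 of the 12 fallers, and the SD of the log2 values was larger in NC than in siPSCA for 34 of the 44 genes. The same counts over all tested genes were not made, so these are not shown to be particular to the members. Because of the dependence on GC content, the fold changes of the members are also given after a smooth trend on GC content and gene length had been removed from every library. After this removal 39.6% of all tested genes were called, 21.2% higher and 18.4% lower, and 24 of the 44 members were called, 12 higher and 12 lower. Of the 28 genes called before, 19 were still called in the same direction (9 higher, 10 lower), and the Spearman correlation with GC content over the members was 0.316. How many of the calls over all tested genes were kept in this way was not worked out. Whether the trend belongs to the libraries or to the treatment was not tested.

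**Figure D2:**
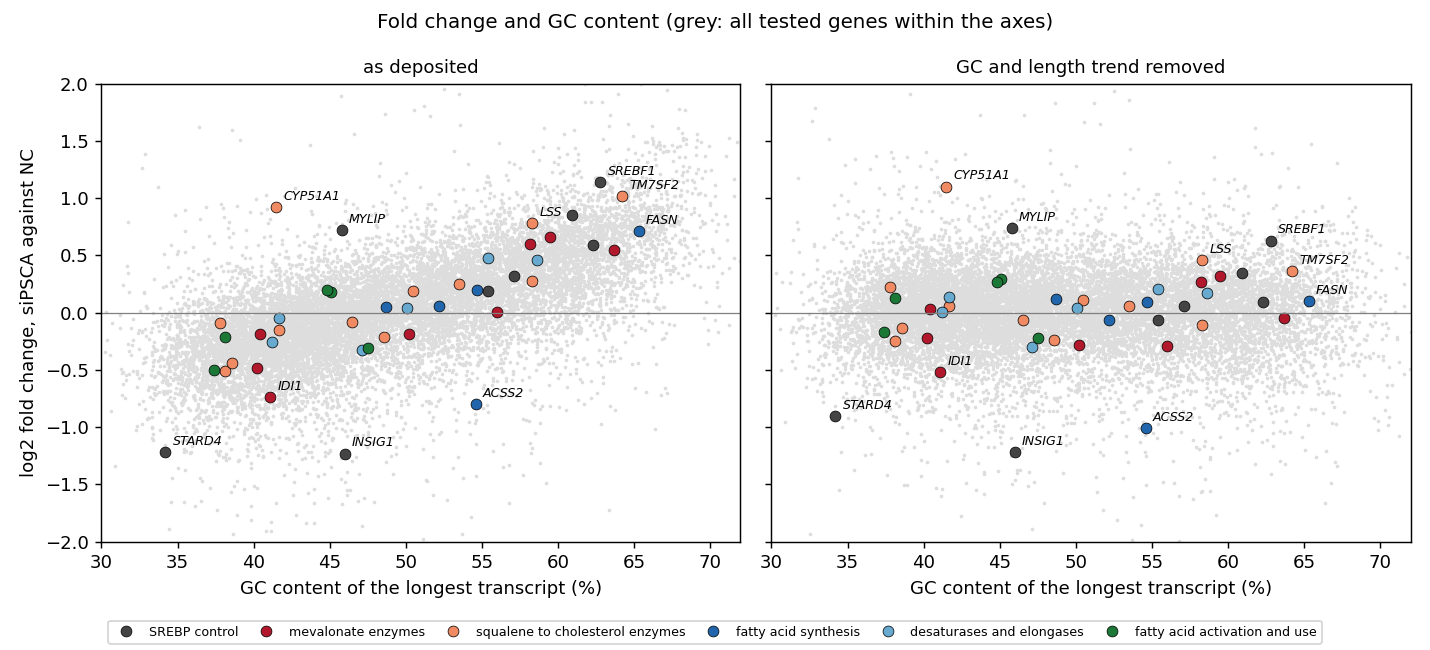
Log2 fold change of siPSCA against NC (vertical axis) plotted against the GC content of the longest transcript in percent (horizontal axis), as deposited (left) and after removal of the GC and length trend (right). Grey points are tested genes and coloured points the 44 members by role; the cloud rises to the right only in the left panel, while INSIG1 (-1.23 and -1.22), ACSS2 (-0.80 and -1.01), MYLIP (0.72 and 0.74) and CYP51A1 (0.92 and 1.10) kept their distance from zero in both.

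Of the 8 genes of SREBP control 7 were called, 5 higher and 2 lower (62.5% and 25.0%, all tested genes 26.6% and 24.2%). Their median absolute log2 fold change was 0.78, beside 0.36 for sterol enzymes, 0.24 for fatty acid genes and 0.30 for all tested genes. After removal of the GC and length trend 3 were called higher and 2 lower (all tested genes 21.2% and 18.4%). The median absolute changes were then 0.49, 0.23, 0.16 and 0.20 in the same order. The median log2 fold change of the 8 genes was 0.46, and 0.07 after this removal. SREBF1 (ENSG00000072310, chromosome 17, 17810399 to 17837002, GRCh38), which encodes SREBP-1, had an FPKM of 26.9, 25.2 and 13.8 in NC and of 47.4, 49.7 and 45.9 in siPSCA. All siPSCA libraries lay above all NC libraries, and NC 3 was the lowest. The SREBF1 mean was 22 ± 7.15 in NC and 47.7 ± 1.90 in siPSCA (SD, n = 3 each), and the fit gave a log2 fold change of 1.14 with a standard error of 0.24 (adjusted p = 0.00991). Without NC 3 the log2 fold change of SREBF1 was 0.85, and after removal of the GC and length trend it was 0.63, both still called. SREBF2, which encodes SREBP-2, had 50.2, 50 and 42.9 FPKM in NC and 62.2, 57.5 and 59.9 in siPSCA. The groups did not overlap and SREBF2 rose by 0.32 on the log2 scale (standard error 0.075, adjusted p = 0.0138), but the call was lost without siPSCA 1 (0.30, adjusted p = 0.0554) and after trend removal (0.06, adjusted p = 0.32). SREBF2 was expressed at a higher FPKM than SREBF1 in both groups.

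SCAP, the escort of both factors, had an FPKM of 12.1, 10.8 and 9.73 in NC and of 17.0, 16.9 and 16.6 in siPSCA. It rose in every siPSCA library, by 0.59 on the log2 scale (standard error 0.079, adjusted p = 0.00238), and after trend removal the value was 0.09 (adjusted p = 0.324). INSIG1 (ENSG00000186480, chromosome 7, 155297776 to 155310235), which retains SCAP in the endoplasmic reticulum and is itself a target of SREBP, moved the other way. Its FPKM was 68.5, 68.9 and 69.4 in NC and 29.3, 27.5 and 29.5 in siPSCA. The libraries of each group were close together, NC 3 included, and the siPSCA mean was 0.418 times the NC mean. The log2 fold change of INSIG1 was -1.23 (95% interval -1.34 to -1.12, adjusted p = 9.42e-05), and it was -1.22 after trend removal and -1.23 without NC 3. Neither the GC and length trend nor NC 3 moved the INSIG1 value by more than 0.01, and with STARD4 it was the largest fall among the 44 genes.

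STARD4, a sterol carrier whose gene is induced by SREBP-2, fell by nearly as much. Its FPKM was 37.1, 39.1 and 37.4 in NC and 14.8, 15.7 and 16.7 in siPSCA, with no overlap between the groups. STARD4 was at -1.22 on the log2 scale (standard error 0.058, adjusted p = 0.000168), and at -0.90 after trend removal. STARD4 has the lowest GC content of the 44 genes (34.2%). NR1H2, which encodes LXR-beta, rose from 7.72, 7.74 and 5.27 FPKM in NC to 13.1, 13.2 and 12.8 in siPSCA. NR1H2 was at 0.85 on the log2 scale (standard error 0.13, adjusted p = 0.00404) and at 0.35 after trend removal, still called (adjusted p = 0.00271). MYLIP, the LXR-induced ubiquitin ligase that removes lipoprotein receptors, had 7.28, 7.38 and 7.06 FPKM in NC and 12.6, 12.6 and 12.5 in siPSCA. It rose by 0.72 (standard error 0.046, adjusted p = 0.000399) and by 0.74 after trend removal. NR1H3, which encodes LXR-alpha and lay at an FPKM of 2.56 to 3.66, was not called, and its log2 fold change was 0.19 with a 95% interval of -0.02 to 0.40, and -0.06 after trend removal.

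**Figure D3:**
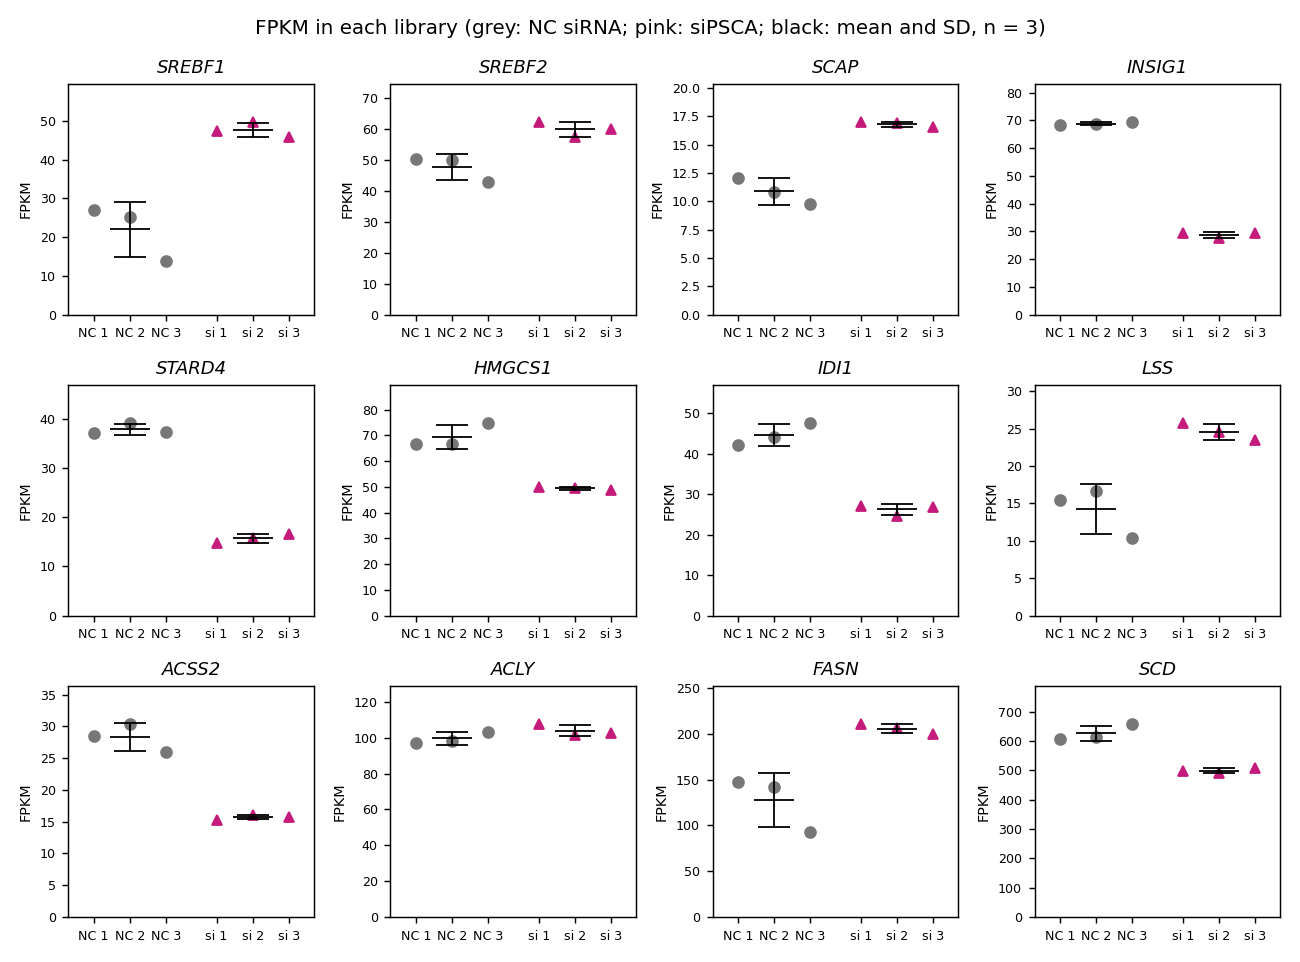
FPKM of 12 genes in each library (grey circles, NC 1 to NC 3; pink triangles, siPSCA 1 to siPSCA 3), with the group mean and SD in black and every axis starting at 0. INSIG1, STARD4, HMGCS1, IDI1, ACSS2 and SCD were lower and SREBF1, SREBF2, SCAP, LSS and FASN higher in all siPSCA libraries than in all NC libraries, whereas ACLY overlapped.

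The enzymes from acetyl-CoA to geranylgeranyl diphosphate did not move together. Of the 8 mevalonate enzymes 2 rose, 2 fell and 4 were not called (25.0% higher and 25.0% lower, all tested genes 26.6% and 24.2%). Their median log2 fold change was -0.09. With the trend removed 1 was higher and 3 were lower (all tested genes 21.2% and 18.4%), with a median of -0.14. HMGCS1, the cytosolic HMG-CoA synthase and a classical SREBP-2 target, had an FPKM of 66.8, 66.5 and 74.7 in NC and of 50, 49.5 and 48.9 in siPSCA. It fell by 0.48 on the log2 scale (standard error 0.058, adjusted p = 0.00187), and by 0.22 after trend removal. IDI1, the isomerase that makes dimethylallyl diphosphate, had 42.1, 44 and 47.5 FPKM in NC and 27.2, 24.7 and 26.9 in siPSCA. It showed the largest fall of all sterol enzymes, -0.74 (standard error 0.065, adjusted p = 0.000875), and -0.52 after trend removal. Both genes fell in all siPSCA libraries, with NC 3 the highest library for each.

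Between these enzymes in the pathway lie the mevalonate kinases, which moved in the opposite direction. MVK had an FPKM of 5.47, 5.4 and 3.77 in NC and of 8.08, 7.42 and 8.03 in siPSCA (fold change 0.60 on the log2 scale, standard error 0.13, adjusted p = 0.0102). PMVK, the phosphomevalonate kinase, had 10.3, 9.60 and 11 FPKM in NC and 18.4, 16.9 and 15.5 in siPSCA (0.66, standard error 0.080, adjusted p = 0.00183). The groups of both genes were separate, and after trend removal MVK was at 0.27 (adjusted p = 0.0237) and PMVK at 0.32 (adjusted p = 0.0909). MVD, the decarboxylase, was at 0.55 with an interval of -0.06 to 1.16, and its NC 3 value (11 FPKM) lay far under NC 1 and NC 2 (21.6 and 22.1). Without NC 3 MVD was at 0.24 (adjusted p = 0.00415), and after trend removal it was at -0.05. The remaining members were not called, at 0.01 (interval -0.10 to 0.13) for the farnesyl diphosphate synthase FDPS, -0.19 (-0.45 to 0.07) for the acetoacetyl-CoA thiolase ACAT2 and -0.19 (-0.39 to 0.01) for the geranylgeranyl diphosphate synthase GGPS1. After trend removal FDPS was at -0.29 and was then called (adjusted p = 0.0179), while ACAT2 stood at -0.28 and GGPS1 at 0.03, neither called.

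Of the 12 enzymes from squalene synthase onward 5 rose, 3 fell and 4 were not called, with a median of 0.06. These were 41.7% higher and 25.0% lower, next to 26.6% and 24.2% of all tested genes. With the trend removed 4 were higher and 3 lower (all tested genes 21.2% and 18.4%), and the median was 0.06. FDFT1, the squalene synthase, fell a little, from 66.0, 66.1 and 70.1 FPKM in NC to 60.1, 55.8 and 58.2 in siPSCA. FDFT1 was at -0.21 on the log2 scale (standard error 0.051, adjusted p = 0.0151), -0.24 after trend removal, and without siPSCA 2 the call was lost (adjusted p = 0.0659). SQLE, the squalene epoxidase and a rate-limiting step, had 31.1, 33.1 and 38.6 FPKM in NC and 33, 31.9 and 32.0 in siPSCA. The groups overlapped and the log2 fold change of SQLE was -0.08 with an interval of -0.28 to 0.12, and -0.06 after trend removal. LSS, which closes the rings to lanosterol, rose from 15.5, 16.6 and 10.4 to 25.7, 24.5 and 23.5 FPKM (0.78, standard error 0.17, adjusted p = 0.0104), and by 0.46 after trend removal.

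TM7SF2, a sterol C14-reductase, showed the largest rise of the sterol enzymes on the log2(FPKM + 1) scale, although by the ratio of group means (2.06) and after trend removal it came behind CYP51A1 (2.56). Its FPKM was 11.8, 11.5 and 6.27 in NC and 21.4, 20.3 and 19.1 in siPSCA, which gave 1.02 on the log2 scale (standard error 0.22, adjusted p = 0.0111). All siPSCA libraries were higher, but the value was 0.75 without NC 3 and 0.36 after trend removal, both called. The GC content of TM7SF2 is 64.2%. LBR, the lamin B receptor, carries the same reductase activity and was not called, with -0.09 (interval -0.20 to 0.01); after trend removal LBR was at 0.22 and was called (adjusted p = 0.00903). CYP51A1, the lanosterol demethylase, had 1.53, 1.62 and 0.648 FPKM in NC and 3.41, 3.83 and 2.45 in siPSCA, or 40 to 101 against 160 to 244 reads. It rose by 0.92 (standard error 0.22, adjusted p = 0.0149) and by 1.10 after trend removal, and without siPSCA 1 or siPSCA 2 the call was lost (adjusted p = 0.0559 and 0.0551). In GENCODE release 29, 79.4% of the exonic bases of CYP51A1 also lie in exons of AC000120.2 on the same strand, which was listed at 0 reads in all libraries. How reads on such shared exons were counted is not given in the sources used here, so the level of CYP51A1 is uncertain.

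Among the enzymes that trim lanosterol to cholesterol, MSMO1, the C4-methyl sterol oxidase, had an FPKM of 74.2, 76.9 and 74.8 in NC and of 52.6, 50.4 and 54.5 in siPSCA. It fell in all siPSCA libraries (-0.51, standard error 0.048, adjusted p = 0.000999), and by 0.25 after trend removal. SC5D, the C5-desaturase, had 16.9, 17.2 and 20.4 FPKM in NC and 13.0, 12.8 and 13.5 in siPSCA (-0.44, standard error 0.080, adjusted p = 0.00631), and after trend removal -0.13 (adjusted p = 0.0826). The late enzymes EBP, an isomerase, and DHCR7, the last reductase of one branch, rose by 0.25 (adjusted p = 0.0112) and 0.28 (adjusted p = 0.0322). After trend removal EBP was at 0.06, not called, and DHCR7 had turned to -0.11 (adjusted p = 0.0363). The DHCR7 call was also lost without any single siPSCA library (adjusted p = 0.0663 to 0.0969). NSDHL was at 0.19 (interval 0.02 to 0.36, adjusted p = 0.0603) and HSD17B7 at -0.15 (interval -0.33 to 0.03), neither called. After trend removal NSDHL was at 0.11 and HSD17B7 at 0.06, again not called.

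**Figure D4:**
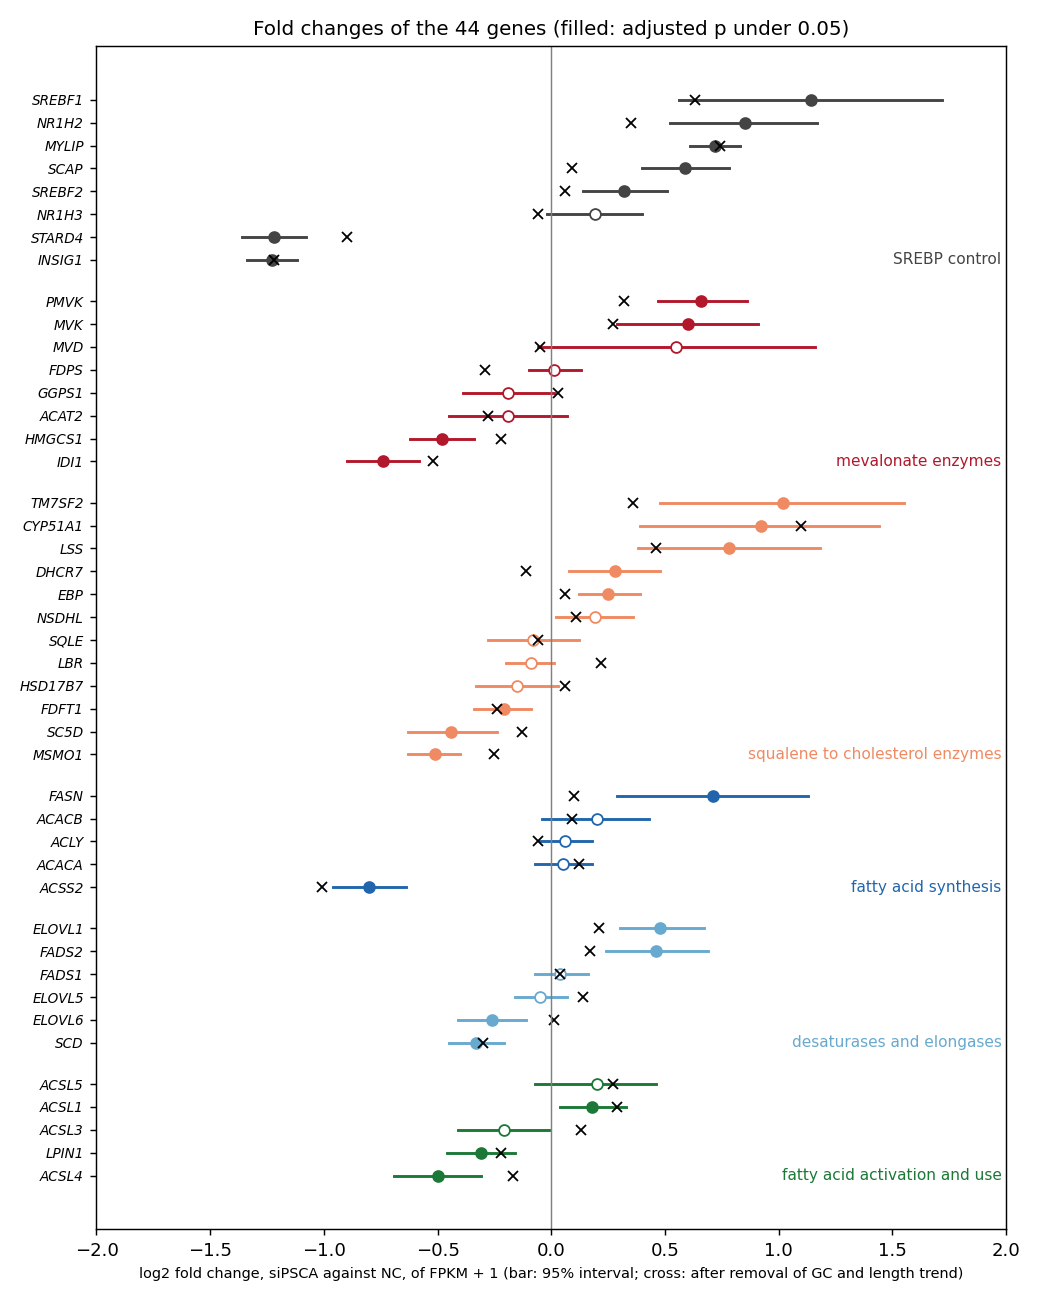
Log2 fold change of siPSCA against NC on the log2(FPKM + 1) scale for the 44 genes by role, with 95% intervals from limma. Filled circles mark the 28 genes with an adjusted p under 0.05, and crosses the same genes after removal of the GC and length trend; risers and fallers occur within every role.

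Fatty acid synthesis proper comprised 5 genes, of which 1 rose, 1 fell and 3 were not called (20.0% higher and 20.0% lower, all tested genes 26.6% and 24.2%). With the trend removed 1 was higher and 1 lower (all tested genes 21.2% and 18.4%). The median was 0.06 before and 0.09 after this removal. FASN (ENSG00000169710, chromosome 17, 82078333 to 82098332), the fatty acid synthase, had an FPKM of 147.7, 142.1 and 93.2 in NC and of 210.2, 206.1 and 200.2 in siPSCA. All siPSCA libraries lay above NC, and NC 3 was far below the other NC libraries. FASN rose by 0.71 (standard error 0.17, adjusted p = 0.0165), by 0.50 without NC 3, and was at 0.10 after trend removal (adjusted p = 0.0896), having the highest GC content of the 44 genes (65.3%). Without siPSCA 1 or siPSCA 2 the FASN call was lost (adjusted p = 0.0577 and 0.0531). ACSS2 (ENSG00000131069, chromosome 20, 34872146 to 34927962), which makes acetyl-CoA from acetate, fell from 28.5, 30.3 and 26.0 FPKM in NC to 15.3, 16 and 15.8 in siPSCA. The groups were far apart, at -0.80 on the log2 scale (standard error 0.066, adjusted p = 0.000744) and at -1.01 after trend removal, and ACSS2 was the only one of the 12 fallers with a GC content over 50%.

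ACLY, the ATP citrate lyase that makes acetyl-CoA from citrate, had 96.8, 98.4 and 103.4 FPKM in NC and 107.4, 101.7 and 102.9 in siPSCA. The groups overlapped, and the log2 fold change of ACLY was 0.06 (interval -0.05 to 0.18), and -0.06 after trend removal. ACACA, the acetyl-CoA carboxylase of the cytosol, had 26.2, 25.7 and 28.2 FPKM in NC and 27.7, 27.4 and 27.9 in siPSCA, a log2 fold change of 0.05 (interval -0.07 to 0.18). For ACLY and ACACA, which lead from citrate to malonyl-CoA, the intervals reached at most 0.18 from zero on the log2 scale, while ACSS2 fell. After trend removal ACACA was called, at 0.12 (adjusted p = 0.0455), and without NC 3 it was then at 0.14 (adjusted p = 0.0116). ACACB, the mitochondrial carboxylase, was low (1.14 to 1.72 FPKM) and was at 0.20 (interval -0.04 to 0.43), with 0.09 after trend removal.

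Of the 6 desaturases and elongases 2 rose, 2 fell and 2 were not called, with a median of 0.00. These were 33.3% higher and 33.3% lower, next to 26.6% and 24.2% of all tested genes. With the trend removed 2 were higher and 1 lower (all tested genes 21.2% and 18.4%), and the median was 0.09. SCD, the stearoyl-CoA desaturase, had the highest FPKM of all 44 genes, 608.8, 613.6 and 656.9 in NC and 497.8, 492.0 and 507.2 in siPSCA. It fell in every siPSCA library, by 0.33 on the log2 scale (standard error 0.049, adjusted p = 0.00341), and by 0.30 after trend removal. ELOVL6, which lengthens palmitate, went from 14.9, 14.2 and 16.2 FPKM in NC to 12.2, 12.2 and 12.8 in siPSCA. ELOVL6 was at -0.26 (standard error 0.061, adjusted p = 0.0142), the call was lost without siPSCA 1 or siPSCA 2 (adjusted p = 0.0556 and 0.0570), and after trend removal it stood at 0.01. ELOVL1, which makes very long saturated chains, rose from 24.5, 22.1 and 20.1 to 31.8, 31.3 and 31.0 FPKM (0.48, standard error 0.076, adjusted p = 0.00384), and by 0.21 after trend removal. FADS2, the delta-6 desaturase, lay at 1.23, 1.35 and 1.01 FPKM in NC and at 1.97, 2.02 and 2.08 in siPSCA (0.46, standard error 0.092, adjusted p = 0.00848), with 0.17 after trend removal (adjusted p = 0.135). FADS1, its delta-5 partner, was at 0.04 (interval -0.07 to 0.16) and ELOVL5 at -0.05 (interval -0.16 to 0.07). After trend removal FADS1 stayed at 0.04, and ELOVL5 was at 0.14 and was called (adjusted p = 0.0181).

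Of the 5 genes that activate fatty acids or pass them on to glycerolipids 1 rose, 2 fell and 2 were not called. ACSL4, the acyl-CoA synthetase that prefers arachidonate, had 23.8, 25.5 and 28.2 FPKM in NC and 16.8, 18.6 and 18.5 in siPSCA. It fell by 0.50 (standard error 0.077, adjusted p = 0.00375), and by 0.17 after trend removal (adjusted p = 0.0393). LPIN1, the phosphatidate phosphatase and an SREBP target, had 5.62, 5.98 and 5.97 FPKM in NC and 4.20, 4.77 and 4.64 in siPSCA (-0.31, standard error 0.064, adjusted p = 0.00926), with -0.22 after trend removal. The groups of both genes were separate. ACSL1 was at 5.13, 4.95 and 5.09 FPKM in NC and at 5.68, 6.29 and 5.69 in siPSCA, a rise of 0.18 (standard error 0.059, adjusted p = 0.0404). The ACSL1 value was 0.14 to 0.20 without each library other than NC 3, where the call was lost (adjusted p = 0.0731 to 0.144), and 0.29 after trend removal, still called (adjusted p = 0.00968). ACSL3 (-0.21, interval -0.41 to -0.01, adjusted p = 0.0714) and ACSL5 (0.20, interval -0.07 to 0.46) were not called. Without NC 3 both were called, ACSL3 at -0.12 (adjusted p = 0.0308) and ACSL5 at 0.32 (adjusted p = 0.00115). After trend removal ACSL3 was at 0.13 (adjusted p = 0.0896) and ACSL5 at 0.27 (adjusted p = 0.0531).

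To contrast the branches, the 20 sterol enzymes were set beside the 16 fatty acid genes. Among the sterol enzymes 12 were called, 7 higher and 5 lower (35.0% and 25.0%), and among the fatty acid genes 9, 4 higher and 5 lower (25.0% and 31.2%), next to 26.6% and 24.2% of all tested genes. The median log2 fold change was -0.03 for sterol enzymes and 0.05 for fatty acid genes, a difference of -0.08, with a median of 0.01 over all tested genes. After trend removal 5 sterol enzymes were called higher and 6 lower, and 4 fatty acid genes higher and 4 lower, next to 21.2% and 18.4% of all tested genes. The medians were then -0.01 for sterol enzymes and 0.10 for fatty acid genes. The median of the sterol enzymes, relative to their NC means, was -0.03, 0.02 and 0.01 in NC 1 to NC 3 and -0.02, -0.04 and -0.03 in siPSCA 1 to siPSCA 3. For the fatty acid genes it was -0.02, -0.02 and 0.04 in NC and 0.04, 0.03 and 0.05 in siPSCA. The medians of both branches thus stayed within 0.10 of zero, and both branches held genes called in each direction.

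**Figure D5:**
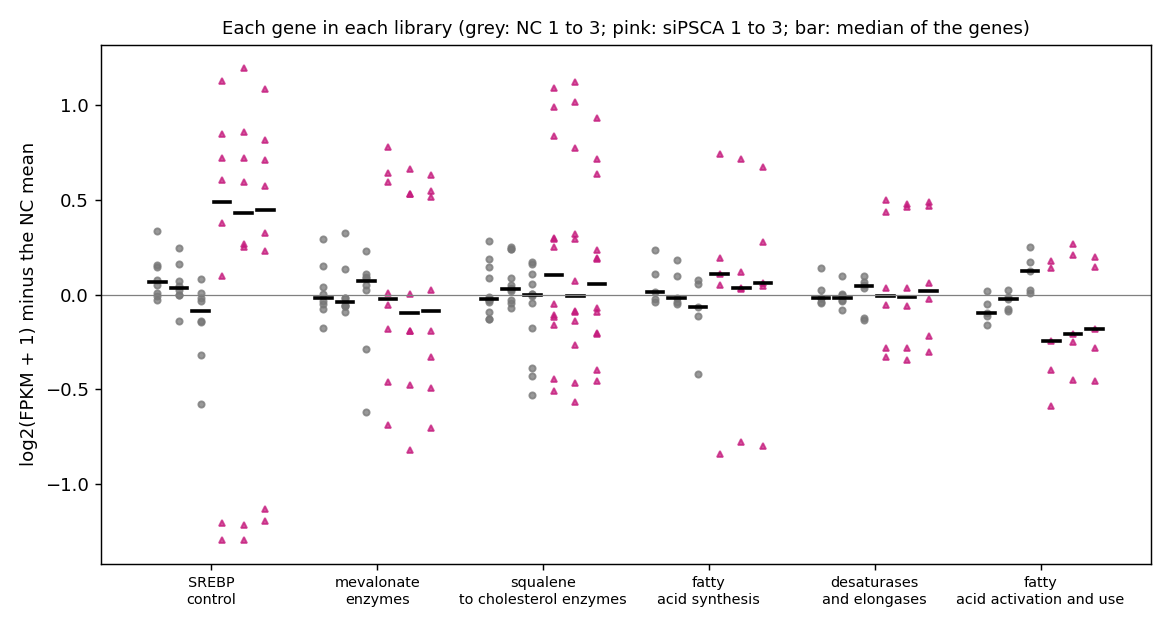
Each of the 44 genes in each library as log2(FPKM + 1) minus its NC mean, by role (grey circles, NC 1 to NC 3 from left to right; pink triangles, siPSCA 1 to siPSCA 3; black bars, median of the genes). In siPSCA the points of SREBP control split into 6 genes with fold changes from 0.19 to 1.14 and a pair far below zero, INSIG1 (-1.23) and STARD4 (-1.22). The median log2 fold changes of the other roles ran from -0.21 (fatty acid activation and use) to 0.06. NC 3 was the most scattered NC library.

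In summed FPKM, the sterol enzymes came to 509.2, 519.7 and 515.3 in NC and to 497.4, 479.9 and 480.9 in siPSCA. The fatty acid genes came to 1088, 1091 and 1109 in NC and to 1043, 1032 and 1043 in siPSCA, of which SCD was the largest item. Both sums were lower in all siPSCA libraries, although FASN, the second most abundant of the 44 genes by FPKM, went up. Without SCD the direction turned, since the other 15 fatty acid genes came to 479.2, 477.6 and 452.2 in NC and to 544.9, 539.6 and 535.9 in siPSCA. Most of this turn lay in FASN alone, at 147.7, 142.1 and 93.2 in NC and at 210.2, 206.1 and 200.2 in siPSCA. It is therefore no joint rise of the 15 genes, and FASN was not called after trend removal (0.10). ACLY, MSMO1, FDFT1 and HMGCS1 followed FASN in the order of mean FPKM (101.8, 63.9, 62.7 and 59.4), and the library values of MSMO1, FDFT1 and HMGCS1 overlapped one another. At the other end were ACACB (1.41), FADS2 (1.61) and CYP51A1 (2.25).

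Genes of the same and neighbouring pathways outside the 44 were read from 4 further lists, in which 33.3% to 61.9% of the tested genes were called, against 50.7% of all tested genes. Of 15 tested genes of sterol synthesis and feedback 3 rose and 2 fell (median 0.04). INSIG2, the second INSIG gene, had the largest fall, from 14.4, 13.4 and 15.2 FPKM in NC to 4.53, 3.53 and 3.63 in siPSCA (-1.65, standard error 0.095, adjusted p = 0.000295), and -1.37 after trend removal. Both INSIG genes therefore fell in all siPSCA libraries. Of 10 tested genes of sterol uptake, transport, storage and efflux 4 rose and 1 fell (median 0.19), led by NPC2, a lysosomal cholesterol carrier (0.76, and 0.84 after trend removal), and STARD3 (0.45) on one side and OSBP (-0.46, and -0.49 after trend removal) on the other. The STARD3 call was lost after trend removal (0.06, adjusted p = 0.565) and in 4 of the 6 fits without a single library, and the value was 0.28 without NC 3. Of 21 other fatty acid and glycerolipid genes 8 rose and 5 fell (median 0.22), with MID1IP1, an activator of acetyl-CoA carboxylase (0.96), the citrate carrier SLC25A1 (0.93), ELOVL7 (-0.68) and HSD17B12 (-0.53) at the ends. These 4 were still called after trend removal, at 0.64, 0.25, -0.38 and -0.18 in the same order. Of 22 tested genes of fatty acid oxidation 10 rose and 1 fell (median 0.15), including the short-chain dehydrogenase ACADS (1.03) and ECI1 (0.80), while ETFA fell by 0.16. After trend removal ECI1 was at 0.27 (adjusted p = 0.0472) and ACADS at 0.37 (adjusted p = 0.154), and ETFA was at -0.03 (adjusted p = 0.642), so that the calls of ACADS and ETFA were lost. The ACADS call was also lost without any single siPSCA library, and its value was 0.65 without NC 3. The ETFA call was lost without each library other than NC 3, and that of ECI1 without siPSCA 2. In the 4 lists, in the order given, 7, 5, 5 and 12 genes rose and 2, 3, 6 and 1 fell after trend removal, with medians of 0.13, 0.16, 0.02 and 0.25. Over all tested genes 21.2% were then higher and 18.4% lower.

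All members but CYP51A1 had at least 192 reads in every library, and a single read on 1 kilobase corresponded to an FPKM of 0.0549 to 0.0595. Exons shared with other genes concern, besides CYP51A1, GGPS1 (37.3% of exonic bases shared with TBCE on the same strand) and, on the opposite strand, ACAT2 (52.3%, SOD2-OT1), FDPS (18.6%, RUSC1-AS1), HMGCS1 (15.0%, AC114947.2) and IDI1 (14.8%, IDI2-AS1). Their values are uncertain to that extent, since the use of strand in counting is not given in the sources used here. In bulk RNA, fewer cells with a transcript and less of it per cell cannot be told apart.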

How the data were processed

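Total RNA was sequenced with paired ends after library construction with the NEBNext Ultra RNA kit, and the expression table that the authors deposited holds FPKM, which is reads divided by gene length and library total, for 58735 genes. Per the labels the genome was GRCh38, all 58735 gene positions equal those of GENCODE release 29, and the aligner, the counting program and the test behind the study's own calls are not given in the sources used here. The product of FPKM and gene length came out as a whole number of reads for 100.0% of values in each library, so reads were recovered.

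The model of limma 3.58.1 (R 4.3.3; lmFit, eBayes with a mean-variance trend, group as the only term, 2-sided) was fitted to log2(FPKM + 1) of 13796 genes whose FPKM averaged 1 or more, with Benjamini-Hochberg adjustment over all of them. A fold change on this scale understates the change of low genes. PSCA was taken from the same fit without the minimum. GC and length trends were natural splines with 5 degrees of freedom, fitted per library to 13792 genes with a GC content. For a single gene, an exact permutation test of 3 libraries against 3 cannot fall below p = 0.1. Plots were drawn with matplotlib 3.10.9, and tables were handled in Python 3.11.15 by pandas 2.3.3 and by numpy 2.4.6. The procedures were tested on simulated data.

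The 44 members and the further lists were chosen with earlier results of these data known. Library values are given for 12 core genes and, in each role, for up to 2 called genes with the largest rise and 2 with the largest fall. In the lists outside the 44, up to 2 of each are named, and some genes that this rule gives are not reported here. The titles of siPSCA 2 and siPSCA 3 carry other numbers after HCT than every other label, and these libraries were kept. Alternatives were a pseudocount of 0.1, no minimum or one of 5, rescaling to a fixed sum (TPM), centring on the median, limma-voom on the recovered reads, the replicate number as a block, removal of the GC and length trend, and leaving out each library. Limits from read numbers cover counting error only.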

Additional observations from a re-analysis of the deposited data

How the results depend on the processing

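Of the 28 calls among the 44 genes, 14 were kept under all 16 alternatives (ACSS2, ELOVL1, HMGCS1, IDI1, INSIG1, LPIN1, LSS, MSMO1, MYLIP, NR1H2, SCD, SREBF1, STARD4 and TM7SF2), 21 without each single library, and 27 under both other scalings, the exception being ACSL1. The matching shares over all called genes were not worked out. The count of called members lay between 20 and 31 under every alternative. On the recovered reads limma-voom called 7388 genes, 4164 higher and 3224 lower, and 30 of the 44. With 3 libraries a group, 1 stem cell line and PSCA near its floor, the comparison describes these libraries, and FPKM values carry no measure of total RNA per cell.

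Same-numbered libraries deviated with correlations of 0.0955, 0.0132 and 0.134, and NC 2 correlated best with siPSCA 1 (0.0363). The labels give only a shared number. With 3 libraries a group these values cannot decide whether same-numbered libraries belong together. With the replicate block 6725 genes were called in place of 7001, and 27 of the 44, the lost one being ACSL1. With the GC and length trend removed and the replicate block, 4643 genes were called (2197 lower), 9 members rose, among them 4 sterol enzymes and 2 fatty acid genes, and the median of the fatty acid genes was 0.10, as it was without the block. With that trend removed and NC 3 left out, an alternative added after the data had been seen, 8 sterol enzymes fell, 7 fatty acid genes rose and 3 fell, and the median of the sterol enzymes was 0.02. Without single libraries the calls over all genes ranged from 4627 to 7425, those higher in siPSCA from 2299 to 4014, the fatty acid genes called higher from 2 to 5, and the median of the sterol enzymes from -0.05 to 0.02, the last being the value without NC 3. With a minimum FPKM of 5, for which fewer genes were tested, 2140 genes were called lower, the median of the fatty acid genes was 0.00 and the sterol minus fatty acid median -0.03. Under TPM and under median-centring the median of the sterol enzymes was -0.08 and that of the fatty acid genes 0.00.

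Signs turned mainly where the GC and length trend was removed. With removal, with removal and block, and with removal without NC 3, in this order, the log2 fold change was -0.05, -0.05 and -0.20 for MVD, -0.29, -0.29 and -0.22 for FDPS, 0.03, 0.03 and 0.03 for GGPS1, 0.22, 0.22 and 0.18 for LBR, 0.06, 0.06 and 0.08 for HSD17B7, -0.11, -0.11 and -0.11 for DHCR7, -0.06, -0.06 and -0.03 for ACLY, 0.14, 0.14 and 0.14 for ELOVL5, 0.01, 0.01 and 0.02 for ELOVL6, and 0.13, 0.13 and 0.18 for ACSL3. NR1H3 turned to -0.06 with removal, with and without the block, and SQLE to 0.01 with removal without NC 3. FDPS was also at -0.03 under TPM and -0.04 under median-centring, and FADS1 at -0.01 under median-centring. Without single libraries FDPS ranged from -0.02 to 0.03 and SQLE from -0.14 to 0.01. The cause of these turns was not tested.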
